A study of Mus musculus with 12 samples.

Results

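The circadian clock genes of the sciatic dorsal root ganglion (DRG) were examined as a set of 10 genes, chosen by name from the deposited count table of 44345 gene names: Arntl, Clock, Npas2, Per2, Per3, Cry1, Cry2, Nr1d1, Nr1d2 and Dbp. All 10 were among the 16238 genes with enough reads to be tested. RNA was sequenced from sciatic L4–L6 DRG of C57BL/6 mice aged 5 to 8 weeks, in 4 groups of 3 samples, and each sample held the ganglia of 2 mice. SH Sham mice spent 10 days in standard housing (SH) and then had the sciatic nerve exposed without axotomy. SH SNA mice had the same housing followed by sciatic nerve axotomy (SNA), a full cut of the nerve. EE Sham mice spent 10 days in an enriched environment (EE), a larger cage with more animals, extra nesting material, objects and a running wheel, before the sham surgery. EE + SNA mice had EE followed by SNA. In every group the ganglia were taken 24 h after surgery. The hour of dissection is not given in the sources used here, nor whether it was the same for all samples. The values are therefore levels at an unstated phase of the day. If the hour differed between groups, it cannot be told apart from the effects of SNA or EE on these genes.

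The clock is a feedback loop of transcription that runs in most tissues of the body, sensory ganglia included. BMAL1 (encoded by Arntl) pairs with CLOCK or NPAS2 and binds E-boxes in the promoters of the Per, Cry and Nr1d genes and of Dbp. PER and CRY proteins then block their own activators, and the nuclear receptors REV-ERB alpha and beta (Nr1d1 and Nr1d2) repress Arntl and Npas2 through ROR response elements. DBP, with its relatives TEF and HLF, activates genes through D-boxes, at which NFIL3 acts as a repressor.

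The promoters of 4 members are printed to show the elements through which the loop acts: Per3 and Cry1 hold an exact match to a searched element, while Cry2 and Dbp, on which the results below turn, do not. Of the 10 members, 9 have an entry in the RefSeq promoter table (build GRCm38.p6). Each sequence is the 250 bases before the gene start of the RefSeq table, read 5′ to 3′ on the strand of the gene, with matches in capitals. The starts of Cry2, Cry1 and Dbp differ from those of the GENCODE annotation used for gene positions below, while that of Per3 is the same. Inside the GENCODE gene lie 159 bases of the Dbp window and 10 of the Cry1 window. The Cry2 window is chr2:92434070-92434319 on the minus strand, Per3 chr4:151044666-151044915 on the minus strand, Cry1 chr10:85185055-85185304 on the minus strand and Dbp chr7:45704997-45705246 on the plus strand.
Cry2: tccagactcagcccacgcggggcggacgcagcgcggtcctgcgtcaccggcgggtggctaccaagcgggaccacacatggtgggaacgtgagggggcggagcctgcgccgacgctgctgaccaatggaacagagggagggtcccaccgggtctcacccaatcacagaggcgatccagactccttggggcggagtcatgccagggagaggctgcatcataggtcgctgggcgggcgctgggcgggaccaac
Per3: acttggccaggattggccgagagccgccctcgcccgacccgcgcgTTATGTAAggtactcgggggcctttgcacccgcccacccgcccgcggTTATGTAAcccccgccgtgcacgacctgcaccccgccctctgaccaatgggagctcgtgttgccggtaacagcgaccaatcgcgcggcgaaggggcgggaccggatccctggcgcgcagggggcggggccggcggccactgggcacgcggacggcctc
Cry1: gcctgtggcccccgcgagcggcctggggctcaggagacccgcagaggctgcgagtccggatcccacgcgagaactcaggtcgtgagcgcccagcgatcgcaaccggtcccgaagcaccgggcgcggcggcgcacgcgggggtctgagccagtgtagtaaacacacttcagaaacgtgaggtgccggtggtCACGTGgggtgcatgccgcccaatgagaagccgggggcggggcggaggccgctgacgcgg
Dbp: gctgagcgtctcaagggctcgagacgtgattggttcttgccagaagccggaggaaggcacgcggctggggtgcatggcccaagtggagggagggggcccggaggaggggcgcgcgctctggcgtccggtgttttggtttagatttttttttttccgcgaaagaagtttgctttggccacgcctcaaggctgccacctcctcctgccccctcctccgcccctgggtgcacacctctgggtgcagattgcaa
The letters searched on both strands were the E-box CACGTG, the D-boxes TTATGTAA and TTACGTAA, and the core of the ROR element TAGGTCA. The search ran from 250 bases before to 50 bases after the start, and the motifs do not overlap each other. Per3 held TTATGTAA from −205 to −198 and again from −158 to −151, and Cry1 held CACGTG from −60 to −55. The other match among the members was a TAGGTCA from +31 to +37 of the second Arntl entry, outside the printed window. Of all 32851 promoters in the table, 7.15% held CACGTG, 0.938% TTATGTAA, 0.119% TTACGTAA and 2.61% TAGGTCA. A match describes letters in this window and is not a measurement of binding.

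The libraries held 11343579 to 22871460 counted reads (median 12769394), and levels are given as CPM, the share of the counted reads that fell on a gene, after TMM scaling, a factor for library composition that lay between 0.978 and 1.02. Atf3, an injury-induced transcription factor, had 110 to 168 CPM in the 6 sham samples and 454 to 549 CPM in the 6 SNA samples, so the surgery labels matched the data. The summed level of 6 sensory neuron markers was 6360 to 7630 CPM, and none of them was at 0 in all samples. The paper describes the EE Sham libraries as part of an older dataset, but the labels list all 12 together and name no batch. If EE Sham was sequenced apart, that batch cannot be told apart from the effect of EE against SH Sham, from the effect of SNA in EE, or from the difference between the SNA effects in EE and SH, and the effects over both housings or surgeries include those samples. The paper sets each condition against its respective SH Sham and does not say with which libraries the SH Sham samples were sequenced. If that was apart from the SNA libraries, such a batch cannot be told apart from the SNA effects in SH or over both housings. Comparisons against SH Sham share its 3 samples, and those against the other groups likewise.

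All 10 genes were detected in every sample, over a wide range of levels. By the deposited FPKM, a level per gene length that allows genes to be compared, the order was Nr1d1 (mean of 12 samples 20.6 FPKM), Cry2 (14.5), Nr1d2 (12.2), Clock (10.5), Dbp (4.59), Cry1 (3.51), Arntl (1.44), Per2 (1.30), Per3 (1.01) and Npas2 (0.42). Ranges over the 12 samples overlapped between the neighbours Cry2 and Nr1d2, Nr1d2 and Clock, Dbp and Cry1, Arntl and Per2, and Per2 and Per3. Within samples, Per2 was above Per3 in 12 of 12, Dbp above Cry1 and Nr1d2 above Clock in 11, Cry2 above Nr1d2 in 10 and Arntl above Per2 in 9, so the order of the pairs other than Per2 and Per3 was not the same in every sample. Without any overlap of ranges, Nr1d1 stood apart from Cry2, Clock from Dbp, Cry1 from Arntl and Per3 from Npas2. Of the partners of BMAL1, Clock (8.76 to 12.2 FPKM) was above Npas2 (0.224 to 0.609 FPKM) in every sample.

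**Figure D1:**
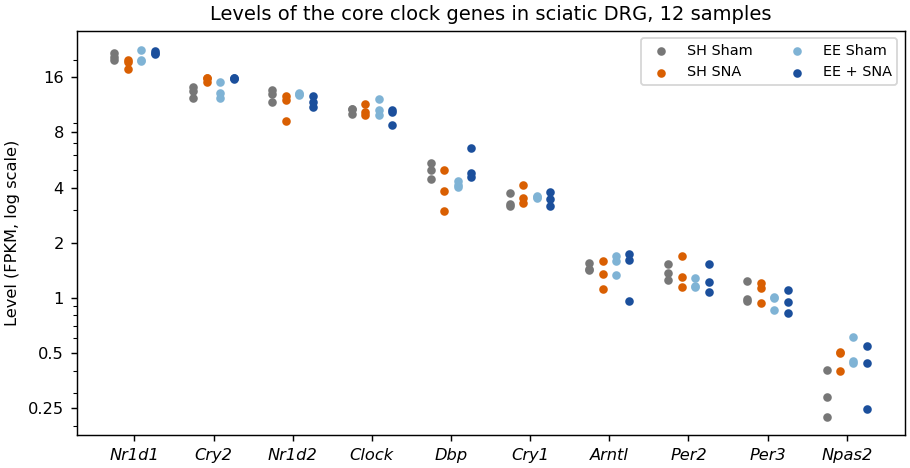
Level of each clock gene in the 12 samples, in FPKM on a log axis, with genes ordered by their mean and points coloured by group. Nr1d1 lies highest, at a mean of 20.6 FPKM, and Npas2 lowest, at 0.42 FPKM.

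The spread between samples of the same group differed among the members. For Dbp the coefficient of variation within groups was 17.3%, against a median of 9.59% (middle 50% of genes 7.58% to 11.8%) for the 2258 tested genes of like level. Nr1d2 (9.84% against a median of 6.16%) and Clock (8.86% against 6.00%) also lay above the middle 50% of their like-level genes. Cry2 (5.57% against 5.90%), Nr1d1 (5.03% against 6.12%) and Cry1 (8.94% against 10.6%) lay below the median for their level. The depth behind the values was lowest for Npas2, with 15 to 60 reads per sample, and Arntl, with 32 to 107 reads, while Cry2 had 896 to 2268 reads.

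**Figure D2:**
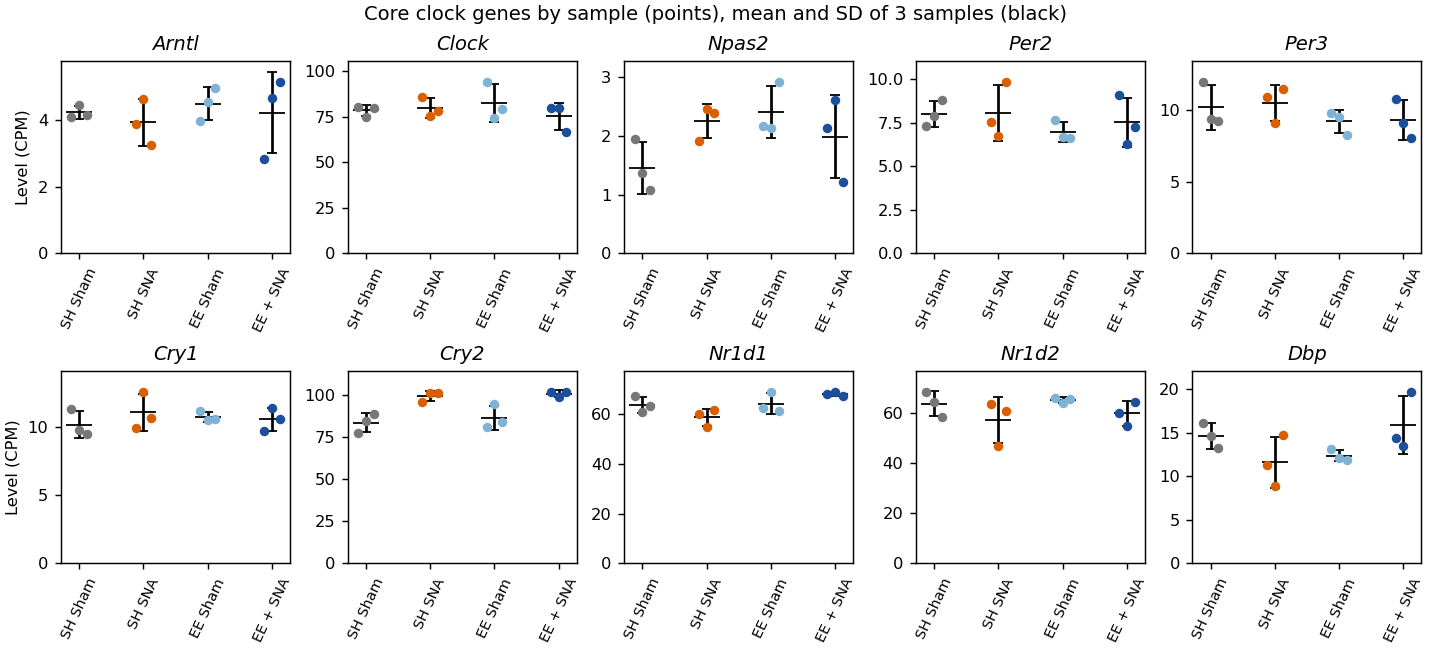
Level in CPM of each clock gene by group, with a point per sample, the mean as a horizontal bar and the SD of 3 samples as a vertical bar, each axis starting at 0. Cry2 is higher in all 6 SNA samples than in all 6 sham samples, and the mean of Dbp is lower in SH SNA and higher in EE + SNA than in the sham group of the same housing.

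The effect of SNA was compared with sham within each housing and over both. Cry2, a repressor that blocks CLOCK and BMAL1, rose after SNA, and no other member passed the adjusted threshold in the comparison over both housings. The activators Arntl and Clock, the repressors Per2, Per3 and Cry1, and Nr1d1 had differences of at most 0.09 in size on the log2 scale there. Of the 10 members, 1 was called after SNA over both housings at an adjusted P-value of 0.05, against 22.4% of all tested genes. The median log2 difference of the members was 0.02, against 0.007 for all tested genes.

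Cry2 (ENSMUSG00000068742, chromosome 2, bases 92403646 to 92434043, minus strand of GRCm38) had 77.8, 84.4 and 88.7 CPM in SH Sham and 96.0, 101 and 101 CPM in SH SNA. In EE Sham it had 80.9, 94.5 and 83.8 CPM, and in EE + SNA 102, 98.7 and 102 CPM. The 6 SNA samples were all above the 6 sham samples, a separation found in 11.1% of tested genes in either direction. The log2 difference was +0.24 (SE 0.045, 95% interval 0.14 to 0.33, adjusted P = 0.00107 by edgeR's quasi-likelihood test with Benjamini-Hochberg adjustment), a fold of 1.18.

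Within SH, Cry2 was 83.6 ± 5.47 CPM after sham surgery and 99.3 ± 2.93 CPM after SNA (SD, n = 3), a log2 difference of +0.25 (SE 0.060, adjusted P = 0.0173). It was the 1 member of 10 called in SH, against 11.2% of tested genes, and the 1 whose groups did not overlap, against 29.4%. At an unadjusted P-value of 0.05 there were 2 members in SH, Cry2 and Npas2, against 25.2% of tested genes. Within EE it was 86.4 ± 7.17 CPM and 101 ± 1.89 CPM (SD, n = 3), a log2 difference of +0.21 (SE 0.074, unadjusted P = 0.0135, adjusted P = 0.124). In EE, edgeR and DESeq2 each called 0 of 10 members, against 4.83% of tested genes in edgeR, and each gave 2, Cry2 and Dbp, at an unadjusted P-value of 0.05, against 20.6% in edgeR. The groups of those 2 genes did not overlap in EE, against 25.8% of tested genes. The SNA effect on Cry2 in EE minus that in SH was −0.03 (95% interval −0.23 to 0.17). EE + SNA against SH Sham gave +0.27 (SE 0.064, adjusted P = 0.0166), again the 1 member called, against 12.5% of tested genes, and the 1 at an unadjusted P-value of 0.05, against 27.2%. The groups of 2 members, Cry2 and Nr1d1, did not overlap there, against 31.8% of tested genes.

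The call of Cry2 in SH was lost without SH Sham replicate 1 (adjusted P = 0.0729), SH SNA replicate 2 (0.0629) or SH SNA replicate 3 (0.0612), and its value in EE passed the threshold without EE Sham replicate 2 (+0.28, adjusted P = 0.0350). Over both housings Cry2 was called under all 20 alternatives tried. The Cry2 exons share 295 of 6320 bases (4.67%) with the opposite-strand transcript D930015M05Rik, which had 4.55 to 6.84 CPM and a log2 difference of +0.46 in SH (SE 0.13, adjusted P = 0.0447) and +0.02 in EE (SE 0.16, adjusted P = 0.962). Reads of the strands cannot be told apart if the counting ignored strand, and the setting is not given in the sources used here. Reads that HTSeq marked as ambiguous between genes, 0.314% to 0.37% of its totals, were left out of the counts.

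Markers of other cell types moved with SNA as well. Over both housings, 4 of 4 Schwann cell markers rose at an adjusted P-value of 0.05, as did 3 of 6 macrophage, 2 of 4 satellite glia, 2 of 4 fibroblast, 1 of 4 endothelial, 1 of 4 tested neutrophil and 1 of 3 tested red blood cell markers, while 3 of 6 sensory neuron markers fell and 0 of 4 skeletal muscle markers passed, 3 of these having an unadjusted P-value under 0.05. Of all tested genes, 11.4% rose and 11% fell. The summed Schwann cell markers ranged from 6680 to 8150 CPM in SH Sham, 7120 to 10600 in SH SNA, 5890 to 8330 in EE Sham and 8640 to 11400 in EE + SNA. The summed macrophage markers ranged over 40.6 to 47.6, 49.5 to 70.1, 43.3 to 47.4 and 50.1 to 70.8 CPM in the same order, and the sensory neuron markers over 6970 to 7630, 6390 to 6900, 6710 to 6940 and 6360 to 6860 CPM. No marker in the count table was at 0 in all samples. Their part in the Cry2 difference was not tested, and in whole ganglia fewer cells of a type and less RNA per cell cannot be told apart.

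Among the activators, Arntl had 4.11, 4.45 and 4.15 CPM in SH Sham, 3.90, 4.65 and 3.26 in SH SNA, 3.97, 4.55 and 4.96 in EE Sham and 2.85, 4.66 and 5.16 in EE + SNA. The lowest and the highest of the 12 values were both in EE + SNA, and all 4 groups overlapped. Its log2 difference after SNA over both housings was −0.09 (95% interval −0.37 to 0.20). Clock had 75 to 80.1 CPM in SH Sham, 75.5 to 85.9 in SH SNA, 74.2 to 94.1 in EE Sham and 66.7 to 79.6 in EE + SNA, with a log2 difference after SNA of −0.05 (95% interval −0.18 to 0.08).

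Npas2, which can take the place of CLOCK, had 1.94, 1.36 and 1.07 CPM in SH Sham and 1.91, 2.45 and 2.39 CPM in SH SNA. In EE Sham it had 2.17, 2.13 and 2.92 CPM and in EE + SNA 2.14, 2.61 and 1.21 CPM. SH Sham held 2 of the 3 lowest values, and EE + SNA replicate 3 the other. The log2 difference after SNA was +0.61 in SH (SE 0.26, unadjusted P = 0.0389, adjusted P = 0.171) and −0.24 in EE (SE 0.29, unadjusted P = 0.431), and the difference between these effects was −0.84 (95% interval −1.70 to 0.02, unadjusted P = 0.0543). With 15 to 60 reads per sample, Npas2 was measured with the widest intervals of the 10 genes.

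Of the repressors, Per2 had 7.33 to 8.83 CPM in SH Sham, 6.76 to 9.87 in SH SNA, 6.66 to 7.67 in EE Sham and 6.31 to 9.08 in EE + SNA. Per3 had 9.23 to 12, 9.13 to 11.5, 8.29 to 9.84 and 8.06 to 10.8 CPM in that order, and Cry1 9.49 to 11.3, 9.94 to 12.6, 10.5 to 11.2 and 9.70 to 11.4 CPM. The 4 groups of each of these genes overlapped. The 95% intervals of their SNA effects over both housings were −0.18 to 0.28 for Per2, −0.18 to 0.23 for Per3 and −0.12 to 0.22 for Cry1. Differences inside these bounds remained compatible with the data.

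Nr1d2, which encodes REV-ERB beta, had 68.6, 64.6 and 58.5 CPM in SH Sham, 63.8, 46.8 and 61.0 in SH SNA, 66.3, 64.1 and 65.6 in EE Sham and 60.2, 54.9 and 64.7 in EE + SNA. The lowest value was that of SH SNA replicate 2, and sham and SNA samples overlapped in SH and in EE. The log2 difference after SNA was −0.14 over both housings (SE 0.066, unadjusted P = 0.0424, adjusted P = 0.127), −0.16 in SH and −0.14 in EE. It was 1 of 2 members, with Cry2, at an unadjusted P-value of 0.05, against 34.7% of tested genes. Without SH SNA replicate 2 it was −0.09 (unadjusted P = 0.108). The unadjusted P-value was under 0.05 in 14 of 20 alternatives, and the adjusted P-value in 1, with no filter on low counts (0.0336).

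**Figure D3:**
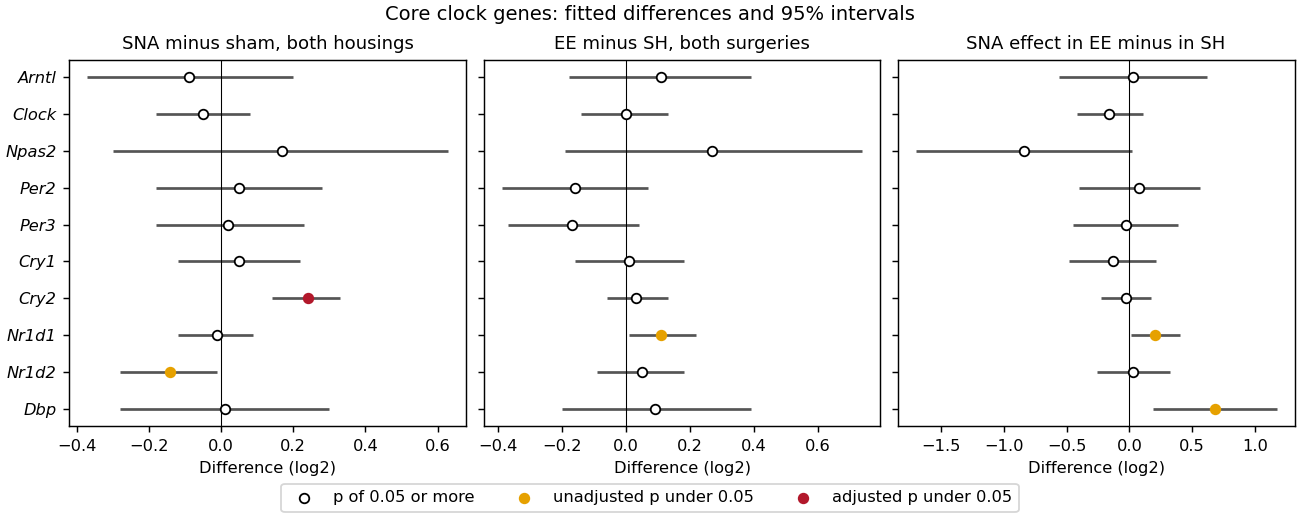
Fitted log2 differences (points) with 95% intervals (lines) of the 10 clock genes for SNA minus sham, for EE minus SH, and for the SNA effect in EE minus that in SH. Cry2 after SNA, at +0.24, is the filled red point with an adjusted P-value under 0.05, and the widest intervals are those of Npas2.

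The effect of SNA in EE was set against its effect in SH, to ask whether enrichment before the injury changed the response of the clock genes. Dbp, a transcription factor whose gene is a classic direct target of CLOCK and BMAL1, lay lower after SNA in SH and higher after SNA in EE. Nr1d1, which encodes REV-ERB alpha, showed a smaller difference of the same sign. Neither passed adjustment. Of the 10 members, edgeR called 0 on this difference, DESeq2 also called 0, and edgeR called 0% of all tested genes. At an unadjusted P-value of 0.05, edgeR gave 2 members, Dbp and Nr1d1, against 2.61% of tested genes, and DESeq2 gave 1, Dbp.

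Dbp (ENSMUSG00000059824, chromosome 7, bases 45705088 to 45710203, plus strand) had 16.1, 14.6 and 13.2 CPM in SH Sham and 11.3, 8.87 and 14.7 CPM in SH SNA. In EE Sham it had 13.1, 12.1 and 11.9 CPM, and in EE + SNA 14.4, 13.5 and 19.7 CPM. In SH, SNA replicate 3 lay inside the sham range and the other 2 below it, whereas in EE all 3 SNA samples were above all 3 sham samples. The log2 difference after SNA was −0.33 in SH (SE 0.16, unadjusted P = 0.0597, adjusted P = 0.221) and +0.34 in EE (SE 0.14, unadjusted P = 0.0315, adjusted P = 0.193). The difference between these effects was +0.68 (SE 0.23, 95% interval 0.19 to 1.17, unadjusted P = 0.00953, adjusted P = 0.9999), and over both housings the SNA effect was +0.01 (95% interval −0.28 to 0.30).

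The difference between the effects on Dbp ranged from 0.50 to 0.88 when each sample was left out in turn. Its unadjusted P-value was at most 0.0328 under all 20 alternatives, and its adjusted P-value was under 0.05 only with no filter on low counts (0.0403). The value in SH was −0.54 without SH SNA replicate 3 (adjusted P = 0.0347) and −0.17 without SH SNA replicate 2 (unadjusted P = 0.229). That in EE was +0.17 without EE + SNA replicate 3 (unadjusted P = 0.175). Of these samples, SH SNA replicate 2 had 263 CPM of the skeletal muscle marker Acta1, against 8.03 and 9.39 in the other SH SNA samples. EE + SNA replicate 3 had 217 CPM of the neutrophil marker S100a8, against 48 and 47.8 in the other samples of its group. The part of such differences in the Dbp values was not tested. Dbp shares 539 of its 2993 exon bases (18%) with Sphk2 on the opposite strand, which had 49.6 to 57.5 CPM and a difference between the SNA effects of +0.03 (SE 0.088).

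Nr1d1 (ENSMUSG00000020889, chromosome 11, bases 98767932 to 98775333, minus strand) had 67.2, 61.1 and 63.2 CPM in SH Sham, 60.0, 55.1 and 61.7 in SH SNA, 62.5, 69.1 and 61.3 in EE Sham and 68.4, 69.1 and 67.4 in EE + SNA. The 3 values in SH SNA were the lowest of any group on average, and those in EE + SNA lay closest together. The log2 difference after SNA was −0.11 in SH (SE 0.065, unadjusted P = 0.104) and +0.08 in EE (SE 0.070, unadjusted P = 0.279). The difference between these was +0.20 (SE 0.092, 95% interval 0.01 to 0.40, unadjusted P = 0.0421, adjusted P = 0.9999), with an unadjusted P-value under 0.05 in 7 of 20 alternatives. Nr1d1 shares 263 of its 3077 exon bases (8.55%) with Thra on the opposite strand, which fell over both housings by 0.17 on the log2 scale (SE 0.043, adjusted P = 0.00974) and had a difference between the SNA effects of +0.08 (SE 0.088).

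The effect of EE was compared with SH after each surgery and over both. No member passed the adjusted threshold. After sham surgery, edgeR and DESeq2 each called 0 of 10 members, against 0.00616% of tested genes in edgeR. At an unadjusted P-value of 0.05, edgeR gave 2 members, Npas2 and Dbp, against 2.97% of tested genes, and DESeq2 gave 0. Npas2 was higher in EE Sham than in SH Sham by 0.71 on the log2 scale (SE 0.27, unadjusted P = 0.0200, adjusted P = 0.9999), and Dbp was lower, with a difference of −0.25 (SE 0.11, unadjusted P = 0.0451, adjusted P = 0.9999). The groups of both genes did not overlap, as was the case for 7.61% of tested genes. With the replicate number fitted as a block in edgeR, the unadjusted P-values were 0.00889 for Npas2 and 0.0388 for Dbp. The adjusted P-values of that fit were 0.622 and 0.912.

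After SNA, edgeR and DESeq2 each called 0 of 10 members on housing, and edgeR called 0% of tested genes. Both tools gave 2 members at an unadjusted P-value of 0.05, Nr1d1 and Dbp, against 4.1% of tested genes in edgeR. Nr1d1 was 58.9 ± 3.43 CPM in SH SNA and 68.3 ± 0.871 CPM in EE + SNA (SD, n = 3), with no overlap, a log2 difference of +0.21 (SE 0.062, unadjusted P = 0.00543, adjusted P = 0.989). It was the 1 member whose groups did not overlap, against 10.4% of tested genes. Dbp was 11.6 ± 2.94 and 15.9 ± 3.31 CPM (SD, n = 3), a log2 difference of +0.44 (SE 0.18, unadjusted P = 0.0363, adjusted P = 0.989), and the groups overlapped through SH SNA replicate 3. It was +0.26 without EE + SNA replicate 3 (unadjusted P = 0.160), +0.27 without SH SNA replicate 2 (unadjusted P = 0.143) and +0.64 without SH SNA replicate 3. With the replicate number fitted as a block in edgeR, Dbp differed by +0.46 (SE 0.11, unadjusted P = 0.00104, adjusted P = 0.514). Nr1d1 differed by +0.22 in that fit (unadjusted P = 0.00692, adjusted P = 0.779).

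Over both surgeries, edgeR and DESeq2 each called 0 of 10 members on housing, and edgeR called 0% of tested genes. At an unadjusted P-value of 0.05 edgeR gave 1 member, Nr1d1, with a log2 difference of +0.11 (SE 0.050, 95% interval 0.01 to 0.22, unadjusted P = 0.0396), against 4.69% of tested genes, and DESeq2 gave 0. The groups of 0 members were free of overlap over both surgeries, against 0.135% of tested genes. The 95% intervals of the other members all included 0 and were narrowest for Cry2 (−0.06 to 0.13) and Clock (−0.14 to 0.13) and widest for Npas2 (−0.19 to 0.74).

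The wider clock was described with 19 other clock genes, of which 18 were tested. After SNA over both housings, 7 of the 18 rose and 1 fell, against 11.4% and 11% of all tested genes, and the median log2 difference of the 18 was 0.10, against 0.007. The effect was largest for Nfil3, the repressor at D-boxes, with 7.98 to 11.7 CPM in the 6 sham samples and 20 to 24.4 CPM in the 6 SNA samples, a log2 difference of +1.20 (SE 0.087, adjusted P = 2.87e-08). Bhlhe41, an E-box repressor, rose by 0.53 (SE 0.047), and Per1, the Per gene outside the 10 members, rose by 0.36 (SE 0.064). Rora, which activates at the elements that REV-ERB proteins repress, rose by 0.34 (SE 0.073). The casein kinase genes Csnk1d and Csnk1e, whose products phosphorylate PER proteins, rose by 0.15 (SE 0.037) and 0.33 (SE 0.048). Fbxw11, an F-box protein that directs PER proteins to degradation, rose by 0.21 (SE 0.037). Tef, a relative of Dbp, fell by 0.13 (SE 0.042). Adjusted P-values of these 7 genes lay between 3.89e-07 for Bhlhe41 and 0.0396 for Tef.

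Within SH, 6 of the 18 rose and 0 fell by edgeR, with 7 higher and 1 lower at an unadjusted P-value of 0.05, and within EE 3 rose and 0 fell, with 7 higher and 1 lower at the unadjusted threshold. Of all tested genes, 11.2% were called in SH and 25.2% had an unadjusted P-value under 0.05, against 4.83% and 20.6% in EE. The median log2 difference of the 18 was 0.14 in SH and 0.07 in EE, against 0.005 and 0.004 for all tested genes. The 3 that rose in EE were Nfil3 (+1.08, SE 0.12), Bhlhe41 (+0.59, SE 0.070) and Per1 (+0.38, SE 0.094). On the difference between the SNA effects, 0 of the 18 were called, against 0% of tested genes. At an unadjusted P-value of 0.05 there was 1, against 2.61%. That gene was Ciart, a repressor of CLOCK and BMAL1, named here after its values were seen. It had 2.14 to 2.94 CPM in SH Sham, 2.03 to 2.37 in SH SNA, 1.90 to 2.53 in EE Sham and 2.96 to 3.71 in EE + SNA, and its SNA effect in EE minus that in SH was +0.80 (SE 0.28, unadjusted P = 0.0123, adjusted P = 0.9999). Bhlhe41 shares 1280 of its 6720 exon bases (19%) with an opposite-strand transcript, Gm43909.

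**Figure D4:**
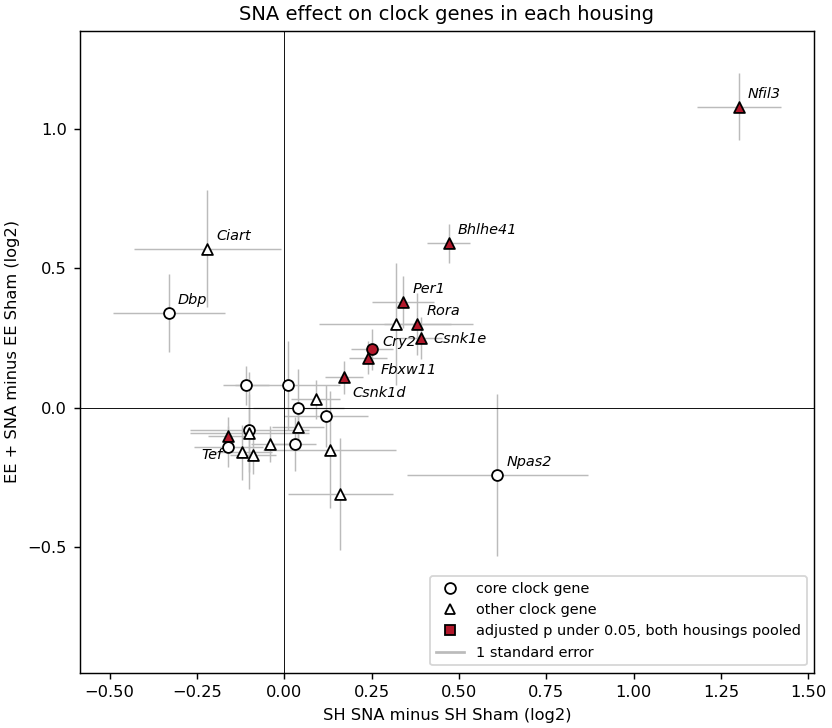
SNA effect in EE (vertical, log2) against SNA effect in SH (horizontal, log2) for the 10 core clock genes (circles) and 18 other clock genes (triangles), with lines of 1 standard error and red for an adjusted P-value under 0.05 over both housings. Nfil3 lies highest on both axes, at +1.30 and +1.08, Cry2 lies with the genes higher in both housings, and Dbp and Ciart lie left of 0 and above it.

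Among 5 genes known as outputs of the clock in other tissues, 1 rose after SNA over both housings, against 11.4% of tested genes, and the median of the 5 was 0.11, against 0.007. The gene that rose was Cdkn1a, an inhibitor of the cell cycle, at +0.79 (SE 0.074, adjusted P = 6.18e-07). In EE + SNA against SH Sham, 2 of the 5 rose and 1 fell, against 12.5% of tested genes called in either direction. Cdkn1a differed by +0.81 (SE 0.079, adjusted P = 5.97e-05), Nampt, an enzyme of NAD synthesis, by +0.23 (SE 0.063, adjusted P = 0.0340), and Wee1, a cell cycle kinase, by −0.55 (SE 0.14, adjusted P = 0.0211). Wee1 had 6.63, 7.39 and 6.75 CPM in SH Sham and 4.72, 4.74 and 4.75 CPM in EE + SNA. Its log2 difference was −0.18 for SH SNA against SH Sham and −0.22 for EE Sham against SH Sham, with adjusted P-values of 0.472 and 0.9999.

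The members were also compared across samples of the same group, because in most tissues Arntl and the Per genes peak at opposite phases of the day. For each of the 45 pairs, log2 CPM relative to the group mean was correlated over the 12 samples, with P-values from permutation within groups. After Benjamini-Hochberg adjustment 0 pairs passed, by Pearson's r or Spearman's rho, and 4 had an unadjusted permutation P-value under 0.05 by each measure. The signs were positive in 21 pairs and negative in 24.

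The pair with the lowest permutation P-value was Arntl with Per3 (r = −0.794, P = 0.00289, adjusted P = 0.130, rho = −0.853, P = 0.00458, adjusted P = 0.206), and r was −0.728 without the 2 samples farthest from the median of Arntl. Arntl with Per2 had r of −0.813 (permutation P = 0.0253, adjusted P = 0.418, rho = −0.643, P = 0.109), which became −0.410 without the 2 samples, so this relation rested on those samples, EE + SNA replicate 1 and SH SNA replicate 3. Nr1d2 with Dbp had r of 0.812 (permutation P = 0.0473, adjusted P = 0.532, rho = 0.853, P = 0.0107, adjusted P = 0.241) and 0.531 without 2 samples. Per3 with Nr1d1 had r of 0.679 (permutation P = 0.0278, adjusted P = 0.418, rho = 0.678, P = 0.0329) and 0.485 without 2 samples. In EE + SNA replicate 1 the level of Arntl was 2.85 CPM, the lowest of all samples, and those of Per2 (9.08 CPM) and Per3 (10.8 CPM) were the highest of their group.

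**Figure D5:**
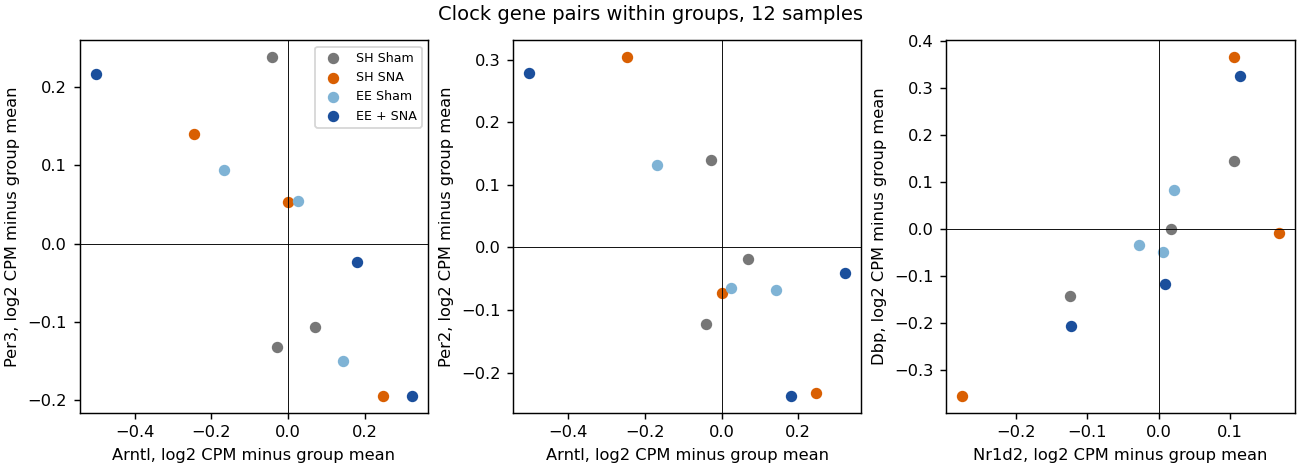
Log2 CPM minus the group mean for Per3 against Arntl, Per2 against Arntl, and Dbp against Nr1d2, with a point for each of the 12 samples coloured by group. The first plots slope down, with r of −0.794 and −0.813, and the last slopes up, with r of 0.812.

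The genes whose log2 CPM over the 12 samples was most like that of Dbp, by Pearson's r among 15334 tested genes with a mean of at least 1 CPM, were Snx18 (r = 0.892), Hhex (0.878), Lsm3 (0.876), Zfp456 (0.872) and Ddx41 (0.869). Those most like Arntl were Ciao1 (0.904), BC031181 (0.891), Hspb11 (0.854), Cd72 (0.840) and Mrpl46 (0.824). None of these 10 genes was in the lists of clock genes. These r are descriptions over samples that share libraries and groups, and they are the highest of a search over all these genes.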

How the data were processed

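RNA of whole sciatic DRG was sequenced as paired ends in 12 samples, each a pool of 2 mice. The authors mapped the reads on mm10 and counted reads by gene name, and per the submitters' processing notes the tools were TopHat2 2.0.12, Bowtie2 2.2.3, SAMtools 0.1.19 and HTSeq 0.6.0 (another HTSeq release is named in the study's methods). The strand setting of the counting is not given in the sources used here. The deposited count table holds raw whole-number counts, and the deposited FPKM table holds the same reads divided by gene length and library total, made by the authors with a program that is not given in the sources used here. Reads that HTSeq assigned to no gene, 56.3% to 56.8% of its totals, were left out of library sizes and tests. The libraries held 11343579 to 22871460 counted reads.

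Counts were scaled by TMM and filtered by filterByExpr (10 counts, total of 15) in edgeR 4.0.16 under R 4.3.3, which left 16238 genes. Comparisons of groups were fitted on their 6 samples, and the effects over both housings, over both surgeries and their interaction on all 12, by the quasi-likelihood F test, two-sided, with Benjamini-Hochberg adjustment over all tested genes. The edgeR test was first tested on simulated data. Counts of replicates differed by more than sampling noise (chi-square per degree of freedom 3.9 to 8.76). P-values measure the spread between pools of mice.

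Alternatives were the likelihood ratio test, DESeq2 1.42.0, scaling by library size only, no filter, at least 10 counts in every sample, a single fit of all 12 samples, a block for the replicate number, limma 3.58.1 on log2(FPKM + 1) or log2(FPKM + 0.1), and leaving out each sample. Replicate numbers were checked for pairing by correlating samples relative to group means. Between SH Sham and EE Sham same-numbered samples had r of 0.111 to 0.331 and others −0.332 to 0.194. These ranges overlapped, so the correlations alone do not settle a pairing. The main tests did not use the replicate number, and the block for it was an alternative.

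The members and lists were chosen with earlier results of these data known. Named genes are the 10 members, genes of the lists of other clock genes, clock outputs and glucocorticoid targets past the adjusted threshold in any comparison, the 5 genes most like Dbp and like Arntl, Atf3, and opposite-strand genes that share exon bases with a member. Ciart and Cipc were found under the names Gm129 and 2310044G17Rik. Positions are from the GENCODE annotation of GRCm38. Correlations used Python 3.11.15 with NumPy 2.4.6 and SciPy 1.17.1, and figures Matplotlib 3.10.9.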

Additional observations from a re-analysis of the deposited data

Results flagged for a closer look

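Effects of SNA that differed between EE and SH by an unadjusted test of the difference were found for 2 members, against 2.61% of tested genes. The SNA effect on Dbp in EE minus that in SH was 0.68 on the log2 scale, with an unadjusted P-value of 0.00953 by edgeR's quasi-likelihood test. The corresponding value for Nr1d1 was 0.20, with an unadjusted P-value of 0.0421, which was under 0.05 in 7 of 20 alternatives and reached 0.147. Neither passed Benjamini-Hochberg adjustment (0.9999 each), and a batch of EE Sham cannot be told apart from these differences.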

How the results depend on the processing

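Of the counts of members called, 124 stayed within 1.5 times of the reported count and 11 moved. In SH the count after SNA was 0 in place of 1 under log2(FPKM + 1) and log2(FPKM + 0.1), with adjusted P-values of 0.0707 and 0.0696 for Cry2, and for EE + SNA against SH Sham it was also 0 in place of 1 under both (0.0520 and 0.0513). With samples left out in turn, the count ranged from 0 to 1 in SH, from 0 to 1 in EE and from 0 to 1 for EE + SNA against SH Sham, where the call of Cry2 was lost without SH Sham replicate 1 (adjusted P = 0.0684) or EE + SNA replicate 1 (0.0711). With no filter, 2 members in place of 1 were called after SNA over both housings, against 4077 of all 26122 genes. On the difference between the SNA effects it was 1 in place of 0, against 77 of 26122. Fitting the replicate number as a block left the counts of members called in all 8 comparisons as reported, at 1 in SH, 0 in EE, 0 for housing after sham surgery, 0 for housing after SNA, 1 for EE + SNA against SH Sham, 1 for SNA over both housings, 0 for housing over both surgeries and 0 for the difference. Alternatives are given for 15 of the 80 fold changes of members. These are the ones with an unadjusted P-value under 0.05 in the main fit or an adjusted one under 0.05 in any setting. Of their 250 values, 237 kept their side of the adjusted threshold, 4 passed it, 9 no longer did and 0 changed sign. Because these fold changes were chosen by their P-values, the lack of sign changes does not extend to the other fold changes. Npas2 shrank to 0.17 for SNA in SH and 0.20 for EE Sham against SH Sham under log2(FPKM + 1). That setting adds 1 to levels of 0.224 to 0.609 FPKM, and under log2(FPKM + 0.1) the values were 0.5 and 0.58. The causes of the other changes were not tested. The replicate numbers were not used as pairs in the main tests of any comparison. The r between same-numbered samples reached down to −0.235 for SNA in SH, −0.142 for SNA in EE and −0.173 for EE + SNA against SH Sham. In SNA mice of both housings it was 0.0573 to 0.126, above every r of other pairs (at most 0.0403), which is a hint from the data only.

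Numbers of all genes called moved by more than 1.5 times in several comparisons. SNA in EE gave 785, against 1303 by the likelihood ratio test, 1694 with no filter, 1278 in a fit of all samples and 361 to 1082 with a sample left out. SNA in SH gave 1823, against 1207 to 1683 with a sample left out, and EE + SNA against SH Sham 2031, against 1168 to 2021. Housing after sham surgery gave 1, against 48 with no filter, 29 with the replicate number as a block and 5 by the likelihood ratio test. Housing after SNA gave 0, against 192 under log2(FPKM + 1), 191 under log2(FPKM + 0.1), 17 with no filter, 2 by DESeq2 and 0 to 7 with a sample left out. Housing over both surgeries gave 0, against 132 with no filter, 5 by the likelihood ratio test and 4 by DESeq2, and the difference between the SNA effects 0, against 77, 1 and 1. Under log2(FPKM + 1), 703 genes were higher and 943 lower for EE + SNA against SH Sham, in place of 1116 and 915, and 310 and 437 for SNA in EE, in place of 407 and 378.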

Other observations

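Of 6 genes induced by glucocorticoids, hormones that can reset peripheral clocks, 3 rose after SNA in SH by edgeR's quasi-likelihood test with Benjamini-Hochberg adjustment, against 11.2% of tested genes in either direction, and the median log2 difference of the 6 was 0.40, against 0.005. Over both housings 1 of the 6 rose, against 11.4% of tested genes, with a median of 0.28. In EE the median was 0.08. Zbtb16, a transcription factor, had 2.99, 5.09 and 5.82 CPM in SH Sham, 11.9, 8.53 and 15.4 in SH SNA, 12.3, 13.8 and 11.1 in EE Sham and 9.17, 11 and 8.22 in EE + SNA. SH Sham was below every other sample, and the log2 difference from SH Sham was +1.38 for SH SNA (SE 0.24, adjusted P = 0.00264), +1.43 for EE Sham (SE 0.19, adjusted P = 0.0452) and +1.06 for EE + SNA (SE 0.21, adjusted P = 0.00603). These values share the SH Sham samples. In EE the log2 difference of Zbtb16 after SNA was −0.38 (SE 0.14, unadjusted P = 0.0187, adjusted P = 0.146). Zbtb16 was the 1 gene of 16238 called for EE Sham against SH Sham. The alternatives called 0 to 48 genes there. Fkbp5, a chaperone of the glucocorticoid receptor, had 55.0, 73.1 and 78.8 CPM in SH Sham and 90.7 to 107 CPM in SH SNA, a log2 difference of +0.49 (SE 0.11, adjusted P = 0.0132). Dusp1, a phosphatase that is also an early response gene, rose by 0.59 in SH (SE 0.084, adjusted P = 0.000750) and by 0.53 in EE (SE 0.085, adjusted P = 0.00434). In EE it was the 1 gene of the 6 to rise, against 4.83% of tested genes called in either direction. On the difference between the SNA effects, 0 of the 6 were called, against 0% of tested genes. At an unadjusted P-value of 0.05, 2 were lower, against 2.61% of tested genes in either direction. These were Zbtb16 at −1.75 (SE 0.31, unadjusted P = 2.82e-05, adjusted P = 0.458) and Fkbp5 at −0.44 (SE 0.17, unadjusted P = 0.0202). A batch of EE Sham cannot be told apart from these differences.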
